A study of Homo sapiens with 54 samples.

Results

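The genes of serine, one-carbon and asparagine synthesis were PHGDH, PSAT1, PSPH, SHMT1, SHMT2, MTHFD2, MTHFD1L, ALDH1L2, PCK2 and ASNS, which are 10 of the 58870 genes in the table. They were selected on their measured values under the coded compound CP14, for a response whose order of doses differed between vectors. The CP14 values of these 10 genes are therefore given as a description and carry no p-value. All 10 genes passed the filter on low counts in each of the 11 model fits.

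Serine is made from the glycolytic intermediate 3-phosphoglycerate in 3 consecutive steps, catalysed by PHGDH, PSAT1 and PSPH. Serine hydroxymethyltransferase then passes a carbon from serine to folate, in the cytosol through SHMT1 and in mitochondria through SHMT2. The mitochondrial folate enzymes MTHFD2, MTHFD1L and ALDH1L2 carry that carbon on to formate or carbon dioxide. The formate serves purine, thymidylate and methionine synthesis. PCK2 is the mitochondrial phosphoenolpyruvate carboxykinase and ASNS makes asparagine from aspartate. Most of these genes are known targets of ATF4, the transcription factor of the integrated stress response and of amino acid shortage, and several respond to NRF2, which is constitutively active in A549 cells because of a KEAP1 mutation.

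RNA was sequenced from A549, a human lung adenocarcinoma line, engineered with an empty vector or a USP18 expression vector and exposed for 48 h to DMSO vehicle or to 1 of 3 coded compounds. CP2 was given at 2 and 5 µM, and CP14 and CP18 were each given at 1, 2.5 and 5 µM, so that the 2 vectors and 9 treatments made 18 groups of 3 libraries. USP18 is the protease that removes the ubiquitin-like modifier ISG15 from proteins, and the labels do not say which structure stands behind each code. The labels and methods do not say how many engineered populations stood behind each vector. A difference between vectors therefore cannot be told apart from a difference between populations. The library labels also do not say whether replicates were separate cultures. The methods speak of independent replicates for experiments in general and not for these libraries, so that p-values are read as measures of the spread between these samples only. Library totals ran from 16673228 to 25609062 expected counts. Levels are given as CPM, that is, counts scaled to library size, after trimmed-mean scaling over all 54 libraries. CPM is a share of the RNA sequenced, so that fewer cells of a type and less RNA per cell cannot be told apart.

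The labels held for the vectors. USP18 was at 10.6, 10.7 and 11.1 CPM in the 3 empty-vector vehicle libraries and at 1302, 1292 and 1328 CPM in the 3 USP18 vehicle libraries, with no overlap. With CP14 at 5 µM it stood at 1965, 2115 and 2062 CPM in USP18 cells, above every vehicle library of these cells. With CP14 at 1 and 2.5 µM it stood below every vehicle library, at 1047, 1055 and 1014 CPM and at 1185, 1197 and 1175 CPM, so that USP18 itself moved in opposite directions from vehicle at 2.5 and 5 µM. With CP18 it was also below every vehicle library at each dose, with means of 981, 1059.7 and 1119.7 CPM at 1, 2.5 and 5 µM. Of the epithelial markers, KRT7, KRT8 and KRT18 had medians of 1703, 3845 and 3599 CPM. CDH1, KRT19 and EPCAM had medians of 79.1, 15.6 and 3.59 CPM. Of the alveolar type II markers, SFTPA1 and SFTPB had a count of 0 in all 54 libraries, whereas NAPSA had a median of 1.36 CPM. The highest values of SFTPC, NKX2-1 and SFTPA2 were 0.36, 0.742 and 0.0997 CPM. The T cell marker CD3E was at 0 in all 54 libraries. Of the leukocyte markers, CD68 was the most abundant, with a median of 36.6 CPM, and PTPRC did not exceed 0.352 CPM. Of the endothelial markers, CDH5 had a median of 0 CPM, and of the fibroblast markers, COL1A1 was the most abundant, with a median of 5.93 CPM.

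Libraries also differed in RNAs that carry no poly(A) tail. The labels name poly(A) capture and the methods name ribosomal depletion, so that how such RNAs were kept is not known. The summed level of 6 such genes, of which RN7SL1 was the most abundant, ranged from 23.8 to 886 CPM over the 54 libraries. In vehicle libraries it was 67.7 to 505 CPM in empty-vector cells and 44.6 to 107 CPM in USP18 cells. With CP14 at 5 µM it was 49.7 to 91.5 CPM and 50.6 to 64.3 CPM, and at 2.5 µM it was 62.7 to 91.6 CPM and 141 to 240.2 CPM, in empty-vector and USP18 cells respectively. For CP18 at 5 µM it was 44.7 to 71.0 CPM in empty-vector and 63.5 to 84.6 CPM in USP18 cells. For CP2 at 5 µM it was 48.6 to 439 CPM and 190 to 225 CPM in the same order. The part of this difference in the results on serine, folate and asparagine genes was not tested.

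On GRCh38, the genes of serine synthesis were PHGDH (ENSG00000092621.12, chr1:119648411-119744218), PSAT1 (ENSG00000135069.14, chr9:78297125-78330093) and PSPH (ENSG00000146733.14, chr7:56011051-56051604). The folate genes were SHMT1 (ENSG00000176974.20, chr17:18327860-18363563), SHMT2 (ENSG00000182199.11, chr12:57229573-57234935), MTHFD2 (ENSG00000065911.12, chr2:74186172-74217565), MTHFD1L (ENSG00000120254.15, chr6:150865679-151101887) and ALDH1L2 (ENSG00000136010.14, chr12:105019784-105107643). PCK2 (ENSG00000100889.11) lay at chr14:24094053-24110598 and ASNS (ENSG00000070669.17) at chr7:97851677-97872542. Spans are those of the whole gene in GENCODE v44, exons and introns included. ASNS had fractional expected counts in all 54 libraries, so that part of its reads was shared out by the counting model, whereas PSPH had whole counts in all 54. Divided by the length of all annotated exons, vehicle levels in empty-vector cells were highest for PSAT1, at 137 ± 5.42 CPM per kb (SD, n = 3), followed by SHMT2 at 26.6 ± 1.12, and lowest for ALDH1L2 at 2.63 ± 0.204. This order depends on the annotation, since the exons joined span 11443 bases for MTHFD2 and 4592 for SHMT2. Before the division, MTHFD2 had a mean of 220 CPM and SHMT2 of 122 CPM in these libraries.

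**Figure D1:**
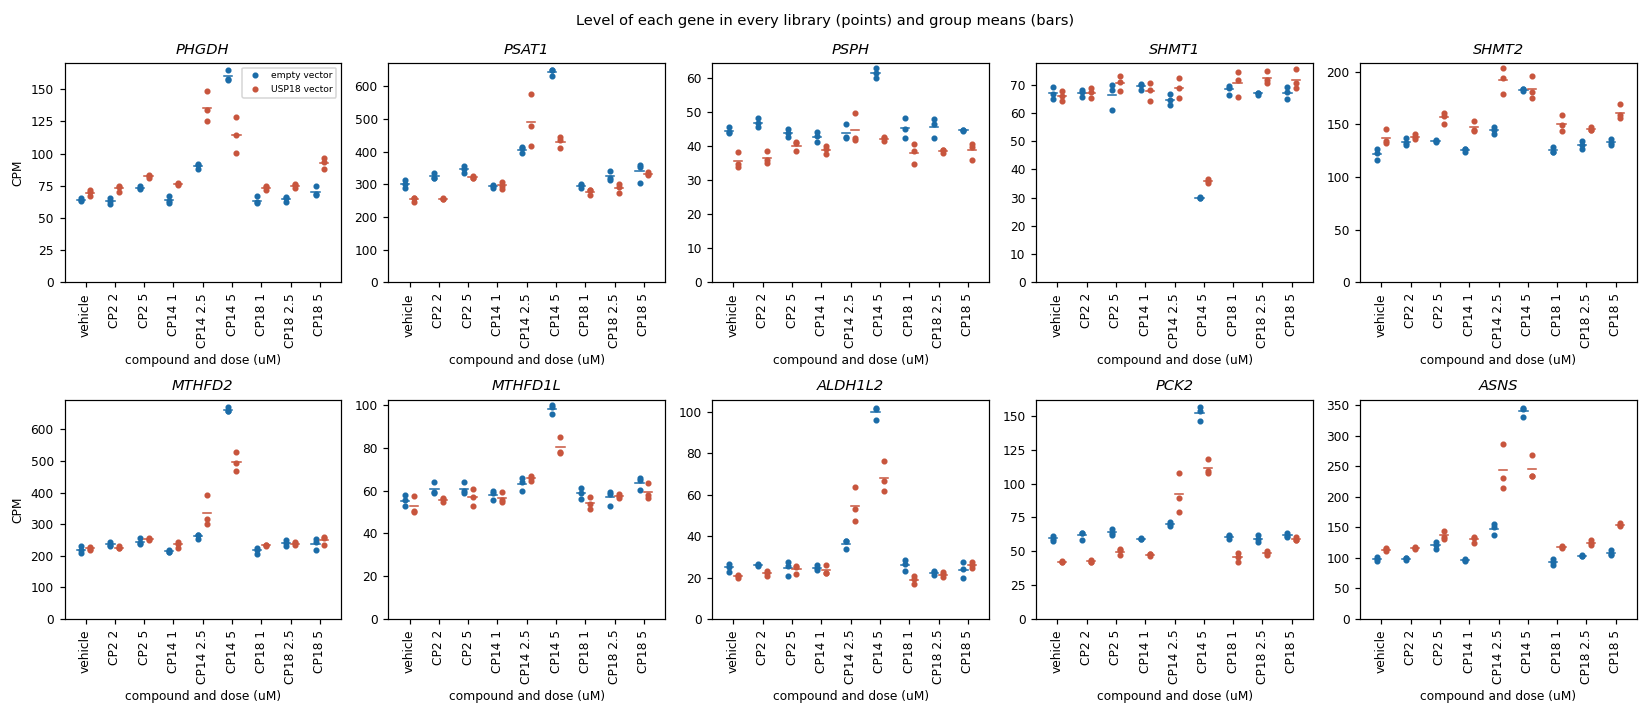
Level of each gene in CPM (vertical axis, linear, from 0) in every library, by treatment (horizontal axis, compound and dose in µM) and vector (blue, empty vector; red, USP18 vector), with a bar at each mean of 3 libraries. ASNS stands at 346, 344 and 329 CPM in empty-vector cells with CP14 at 5 µM, its highest libraries, whereas SHMT1 is at its lowest there.

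The first comparison asked how the vectors differed without a compound. In vehicle, USP18 cells held more PHGDH, SHMT2 and ASNS and less PSAT1, PSPH, ALDH1L2 and PCK2 RNA than empty-vector cells. The largest difference was in PCK2, at 61.4, 59.1 and 58.0 CPM with the empty vector and 42.0, 42.8 and 42.0 CPM in USP18 cells. Every USP18 library lay below every empty-vector library, and the log2 fold change was -0.49 ± 0.044 (SE; edgeR adjusted p = 2.98e-08). ASNS moved the other way, from 97.5, 94.6 and 101 CPM to 111, 116 and 114 CPM (log2 fold change 0.21 ± 0.033; edgeR adjusted p = 2.78e-05), also without overlap. PSPH was lower by all 3 libraries (log2 fold change -0.32 ± 0.055; edgeR adjusted p = 7.7e-05).

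Thus 3 of the 10 genes were higher, where 29% of all genes tested were higher at an adjusted p under 0.05, and 4 were lower, where 28.7% of all genes were lower. These shares are close to the background for 10 genes and are no result about the pathway. The median log2 fold change of the 10 genes was -0.044, against -0.0058 over all genes. On leaving out 1 library, the median of the 10 genes ran from -0.086 to -0.014. The call on PHGDH, higher in 3 of 3 libraries (log2 fold change 0.13 ± 0.040; edgeR adjusted p = 0.0116) was lost in 2 of the other fits, whose adjusted p ran from 0.00632 to 0.058, and without USP18 vehicle replicate 2 (edgeR adjusted p = 0.064).

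Because 9 of the 10 genes rose together with CP14 at 5 µM, the start regions of the genes were read from RefSeq (GRCh38.p14, 250 bases before to 50 bases after each annotated start). The table held PHGDH, PSAT1, SHMT1, MTHFD2, MTHFD1L, PCK2 and ASNS, which are 7 of the 10 genes, and not PSPH, SHMT2 or ALDH1L2. The letters TGATGNAA, which form the core of the composite element that ATF4 and C/EBP proteins are known to bind, were searched on both strands. They occurred in ASNS and MTHFD1L, that is, in 2 of the 7 genes, or 4 of their 11 windows, and in 3.62% of all 35116 windows. A gene may have several windows, so that the share of genes and the share of windows are not the same measure. The stretch before the first ASNS start carries the match at position -68, and the bases around the MTHFD1L match are shown for comparison, with the match in capitals.
ASNS, chr7:97872409-97872528, minus strand: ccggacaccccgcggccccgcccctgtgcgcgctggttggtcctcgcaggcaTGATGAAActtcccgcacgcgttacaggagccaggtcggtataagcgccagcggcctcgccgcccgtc
MTHFD1L, chr6:150866346-150866375, plus strand: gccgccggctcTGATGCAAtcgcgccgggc
The second annotated start of ASNS had no match in its window, and 3 of the 4 MTHFD1L windows held the same match. A match is a description of the letters and not of a bound site.

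CP14 raised the serine synthesis genes in both vectors, with a different order of the 2 upper doses. PHGDH, the first enzyme of the pathway, was at 62.9, 65.4 and 63.8 CPM in empty-vector vehicle libraries, at 91.6, 90.9 and 88.4 CPM with 2.5 µM and at 158, 165 and 157 CPM with 5 µM. In USP18 cells the corresponding libraries were at 69.8, 72.1 and 67.4 CPM, then at 148, 134 and 125 CPM, and then at 129, 100.4 and 114 CPM. PHGDH thus climbed from each dose to the next without overlap in empty-vector cells, whereas in USP18 cells the 2.5 µM mean was the higher of the 2, with overlapping libraries. At 2.5 µM every USP18 library lay above every empty-vector library, and at 5 µM every USP18 library lay below. The log2 fold changes from vehicle were 0.49 ± 0.051 and 1.32 ± 0.060 with the empty vector at 2.5 and 5 µM respectively, and 0.96 ± 0.050 and 0.71 ± 0.060 with the USP18 vector.

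PSAT1, the aminotransferase of the second step, followed the same order. In empty-vector cells it was at 300.0, 289.8 and 314 CPM in vehicle, 411, 395 and 413 CPM at 2.5 µM and 651, 629.7 and 649.5 CPM at 5 µM. In USP18 cells it was at 247, 258 and 259 CPM, then at 576, 477 and 418 CPM, and then at 445, 411 and 435 CPM. The groups of the 2 doses overlapped in USP18 cells and not in empty-vector cells. PSPH, which releases serine in the last step, changed least of the 3 genes. Its 5 µM libraries were at 61.6, 63.1 and 60.2 CPM with the empty vector and 42.6, 42.7 and 41.7 CPM in USP18 cells, and its log2 fold change at 5 µM was 0.46 ± 0.050 and 0.24 ± 0.053. At 2.5 µM, PSPH differed from vehicle by -0.027 ± 0.064 in empty-vector cells, where the libraries overlapped, and by 0.33 ± 0.066 in USP18 cells, where they did not.

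Among the mitochondrial folate genes, ALDH1L2 changed most with CP14. This gene, whose enzyme oxidises 10-formyltetrahydrofolate, was at 22.9, 26.7 and 25.3 CPM in empty-vector vehicle libraries, 37.9, 33.6 and 37.6 CPM at 2.5 µM and 101, 96.1 and 102 CPM at 5 µM. In USP18 cells it was at 20.8, 21.5 and 19.7 CPM, then at 63.8, 53.1 and 47.5 CPM, and then at 76.2, 66.5 and 61.9 CPM. Its log2 fold change at 5 µM was 1.99 ± 0.068 in empty-vector cells, the largest of the 10 genes, and 1.72 ± 0.072 in USP18 cells. At 2.5 µM it was 0.54 ± 0.090 and 1.41 ± 0.089, so that USP18 cells had already made most of their change at the middle dose.

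MTHFD2, the mitochondrial methylenetetrahydrofolate dehydrogenase, kept a clear step between the upper doses in USP18 cells. It was at 219, 208 and 231 CPM in empty-vector vehicle libraries, 265, 254 and 266 CPM at 2.5 µM and 659, 671 and 657 CPM at 5 µM, and in USP18 cells at 219, 223 and 227 CPM, then at 391, 318 and 302 CPM, and then at 529, 468 and 495 CPM. Its 5 µM libraries lay above its 2.5 µM libraries in both vectors. The difference between the 2 doses was 1.35 ± 0.068 on the log2 scale in empty-vector and 0.57 ± 0.067 in USP18 cells. MTHFD1L, which makes formate in mitochondria, rose in the same pattern to 99.3, 95.8 and 100.1 CPM and 85.1, 77.9 and 77.8 CPM at 5 µM with the empty and the USP18 vector (log2 fold change 0.82 ± 0.053 and 0.60 ± 0.054).

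The 2 hydroxymethyltransferases moved apart at 5 µM. SHMT1, the cytosolic enzyme, was at 64.8, 69.2 and 66.7 CPM in empty-vector vehicle libraries and 29.8, 30.4 and 29.9 CPM with CP14 at 5 µM. In USP18 cells it was at 66.0, 64.2 and 67.6 CPM, and then at 35.8, 36.7 and 35.3 CPM. SHMT1 was the only one of the 10 genes that was lower than vehicle at 5 µM, by a log2 fold change of -1.16 ± 0.048 and -0.88 ± 0.046, and the fall was absent at 2.5 µM, where its log2 fold changes were -0.050 ± 0.044 and 0.060 ± 0.044 with overlapping libraries. SHMT2, the mitochondrial enzyme, was at 123, 116 and 127 CPM in vehicle and 184, 184 and 181 CPM at 5 µM in empty-vector cells, and at 134, 133 and 145 CPM, and then at 196, 175 and 181 CPM in USP18 cells. At 5 µM its libraries overlapped between vectors.

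ASNS and PCK2 differed in their step between the upper doses in USP18 cells. ASNS was at 149.6, 137 and 156 CPM at 2.5 µM and 346, 344 and 329 CPM at 5 µM in empty-vector cells, and at 286, 230.4 and 215 CPM, and then at 269, 234 and 234 CPM in USP18 cells. It therefore more than doubled between the doses in empty-vector cells (log2 difference 1.21 ± 0.080) and changed little in USP18 cells (log2 difference 0.020 ± 0.078, and 0.15 without replicate 1 of 2.5 µM). PCK2 was at 70.0, 68.5 and 71.3 CPM, and then at 147, 156 and 153 CPM in empty-vector cells and at 108, 89.7 and 78.8 CPM, and then at 118, 108 and 109 CPM in USP18 cells. Its libraries stepped up without overlap in both vectors, in USP18 cells by a narrow margin, from 107.5 to 107.8 CPM at the nearest. Its log2 fold change from vehicle at 5 µM was close in the 2 vectors (1.35 ± 0.042 and 1.39 ± 0.045). In USP18 cells it started from the lower vehicle level given above.

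**Figure D2:**
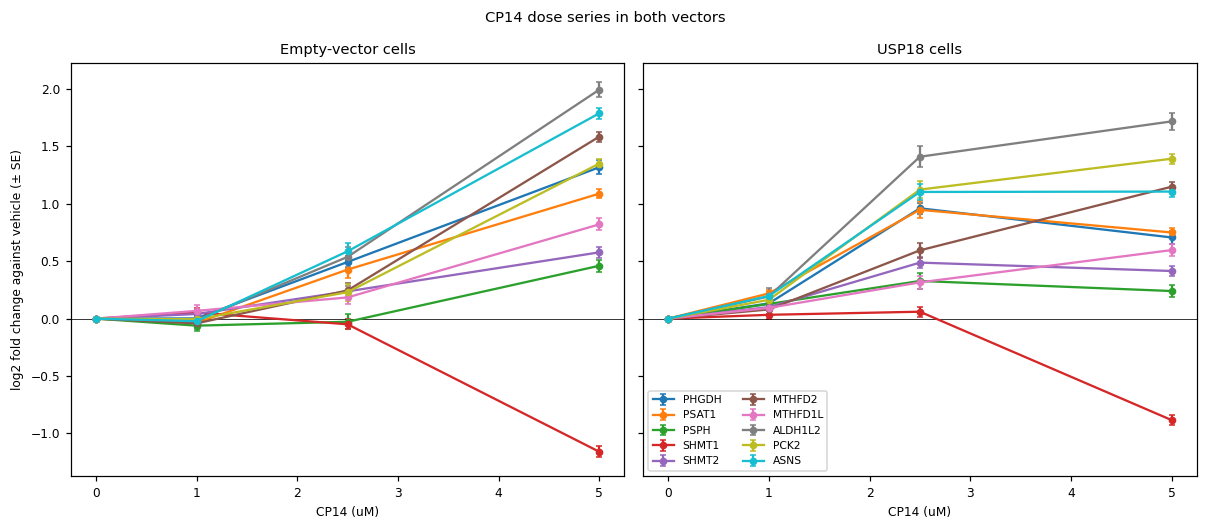
Log2 fold change from vehicle (vertical axis, ± SE) against CP14 dose in µM (horizontal axis) for the 10 genes, in empty-vector cells on the left and USP18 cells on the right. Lines for ASNS run from 0.59 to 1.79 between 2.5 and 5 µM on the left and from 1.10 to 1.11 on the right, and SHMT1 drops in both panels.

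Counted over the 10 genes, 8 were higher than vehicle at 2.5 µM in empty-vector cells, where 7.06% of all genes tested were higher, and 9 in USP18 cells, where 16.3% were. At 5 µM, 9 were higher in empty-vector cells (31% of all genes) and 9 in USP18 cells (34.4% of all genes), and SHMT1 alone was lower in each (32.1% and 34.3% of all genes). At 1 µM, 0 of 10 passed in empty-vector cells by edgeR, with 0 at an unadjusted p under 0.05 and 0 by DESeq2, where 0.861% of all genes passed, and 4 were higher in USP18 cells, where 7.4% of all genes were. The median log2 fold change of the 10 genes was 0.24 and 1.20 in empty-vector cells at 2.5 and 5 µM, and 0.77 and 0.73 in USP18 cells. Over all genes the median lay between -0.0014 and 0.011 in these 4 comparisons. These comparisons share their vehicle libraries within a vector, and nothing is read from the medians, since CP14 values chose the genes.

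The order of the vectors turned over between the 2 doses. At 2.5 µM, 7 of the 10 genes had all 3 USP18 libraries above all 3 empty-vector libraries, as did 28.1% of all genes, and 0 had them all below, against 28.2% of all genes. At 5 µM, 8 genes had all USP18 libraries below (29.6% of all genes) and SHMT1 had them above (28.1% of all genes). The median log2 ratio of USP18 to empty-vector mean levels over the 10 genes went from -0.044 in vehicle to 0.38 at 2.5 µM and -0.46 at 5 µM. As differences of fold changes, 8 genes had a larger rise in USP18 cells at 2.5 µM (4.08% of all genes), while at 5 µM 7 had a smaller one (14.4%) and SHMT1 a less negative one (13.3%).

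The comparison of 5 with 2.5 µM used no vehicle library. In empty-vector cells 9 genes were higher at 5 µM (29.8% of all genes) and SHMT1 was lower (29%). In USP18 cells 4 were higher, namely MTHFD2, MTHFD1L, ALDH1L2 and PCK2 (30.9% of all genes), and 3 were lower, namely PHGDH, PSAT1 and SHMT1 (30.7%). The step from 2.5 to 5 µM was smaller in USP18 cells for 9 of the 10 genes (11.7% of all genes), with ASNS at -1.19 ± 0.11, ALDH1L2 at -1.14 ± 0.12 and PHGDH at -1.07 ± 0.10 on the log2 scale. A rise in empty-vector cells together with a smaller step in USP18 cells was found for 9 genes and for 5.88% of all genes. The genes were selected on CP14 values for a dose order of this kind, so that nothing is read from the counts of this paragraph or from the counts between vectors above.

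**Figure D3:**
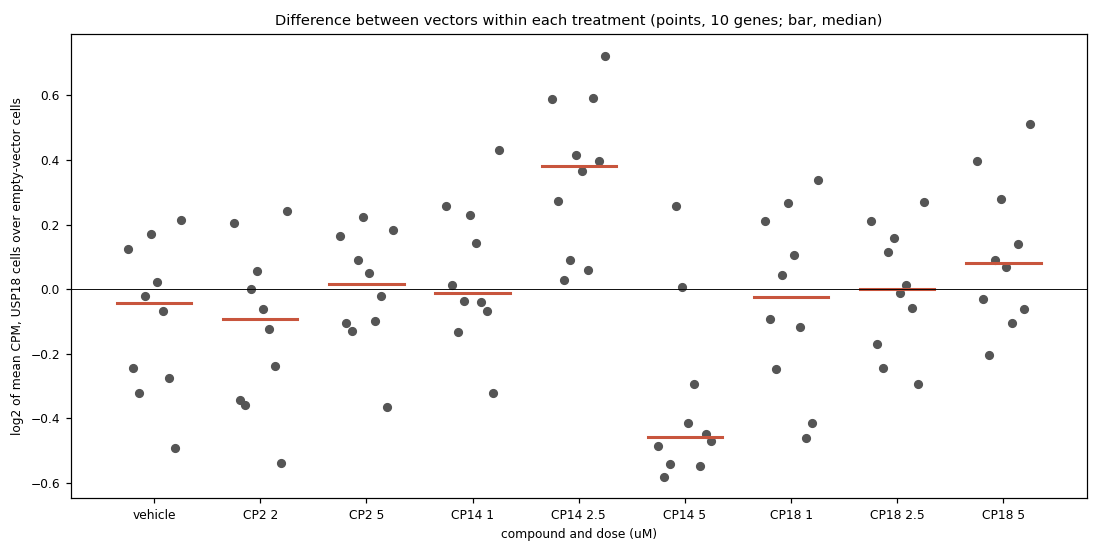
Log2 ratio of the mean CPM in USP18 cells to that in empty-vector cells (vertical axis) within each treatment (horizontal axis, compound and dose in µM), with 1 point for each of the 10 genes and a bar at their median. The bar stands at 0.38 with CP14 at 2.5 µM and at -0.46 with CP14 at 5 µM.

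The 2.5 µM libraries of USP18 cells were uneven. Replicate 1 was the highest of its group for 8 of the 10 genes, at a median of 1.14 times the group mean, and replicate 3 was the lowest for 8. At 5 µM in USP18 cells replicate 1 was also the highest for 8 of the 10, at a median of 1.06 times the group mean. Without replicate 1 of 2.5 µM, the log2 fold change from vehicle was 0.97 for ASNS, 0.82 for PSAT1 and 1.29 for ALDH1L2, and each difference from the empty-vector fold change kept its sign. Without it, the step from 2.5 to 5 µM in USP18 cells was -0.17 for PHGDH, -0.049 for PSAT1 and 0.016 for PSPH, against -0.24, -0.18 and -0.071 with it, and 0.15 for ASNS, against 0.020. The fall of PSAT1 thus shrank and that of PSPH was absent without this library. The difference of steps between vectors was -1.06 for ASNS and -1.02 for ALDH1L2 without it.

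The rule for the genes used CP14 and not CP18 values, although the vehicle libraries of CP18 were also those of CP14. The genes were also chosen with earlier results of these data known, so that CP18 is no independent check. At 5 µM, 6 of the 10 genes rose in USP18 cells, a larger share than the 4.32% of all genes that rose. They were PHGDH, PSAT1, SHMT2, ALDH1L2, PCK2 and ASNS. The all-gene count in either direction, 1680, was 883 without CP18 replicate 1 and 2569 in 1 fit of all libraries. ASNS was at 111, 116 and 114 CPM in vehicle and 157, 154 and 153 CPM with CP18 (log2 fold change 0.43 ± 0.042; edgeR adjusted p = 1.25e-06), with every treated library above every vehicle library. PCK2 went from 42.0, 42.8 and 42.0 CPM to 58.4, 58.6 and 60.8 CPM (log2 fold change 0.47 ± 0.047; edgeR adjusted p = 1.55e-06). PHGDH reached 96.5, 93.3 and 88.4 CPM from the vehicle libraries given above (log2 fold change 0.40 ± 0.050; edgeR adjusted p = 2.41e-05). The ALDH1L2 call (edgeR adjusted p = 0.0336; log2 fold change 0.33 ± 0.10) was lost on leaving out any 1 of its 6 libraries (edgeR adjusted p from 0.0522 to 0.139).

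In empty-vector cells, CP18 at 5 µM raised PSAT1, MTHFD1L and ASNS, which are 3 of the 10 genes, where 4.09% of all genes rose. The changes were small. Over all genes, treated replicates 2 and 3 differed most of the 54 pairs of replicate libraries, with a chi-square per gene of 10.2. The 54 pairs ran from 1.79, and those of CP2 at 5 µM in empty-vector cells were at 6.66 to 8.08. ASNS went from 97.5, 94.6 and 101 to 107, 105 and 113 CPM (log2 fold change 0.15 ± 0.044; edgeR adjusted p = 0.0375), and PSAT1 had an adjusted p of 0.0484 and MTHFD1L of 0.0476 by edgeR, close to the threshold. The count was 0 without vehicle replicate 1 or 2, 1 without treated replicate 1 and 2 without treated replicate 2 or 3. The ASNS call was lost in 3 of the 5 other fits (edgeR adjusted p = 0.0603 with no filter, 0.0552 with the replicate block and 0.11 in 1 fit of all libraries, from a lowest of 0.0234 over the 5). PSAT1 was lost with RLE factors and the replicate block, with adjusted p from 0.00609 to 0.0761 over the 5, and MTHFD1L with RLE factors, with adjusted p from 0.00991 to 0.0538. The difference between vectors passed for PCK2 alone, by 0.41 ± 0.066 on the log2 scale (edgeR adjusted p = 0.00595), where 0.0447% of all genes had a larger rise in USP18 cells, that is, 7 genes. The all-gene count in either direction, 42, was 30 with the replicate block, 110 by DESeq2, 121 in 1 fit of all libraries and 209 with no filter, and from 21 without USP18 vehicle replicate 1 to 138 without empty-vector CP18 replicate 3. For ASNS the difference was 0.28 ± 0.061 (edgeR adjusted p = 0.0612), with a 95% interval of 0.16 to 0.40, and did not pass. It passed in 3 of the 5 other fits (adjusted p = 0.00124 by DESeq2, 0.0129 with no filter and 0.0468 with RLE factors, by edgeR) and without empty-vector CP18 replicate 3 (edgeR adjusted p = 0.00456), where the count was 3 in place of 1, with PHGDH added.

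The step from 2.5 to 5 µM of CP18 shared no library with a CP14 comparison. In USP18 cells, ASNS (log2 difference 0.31 ± 0.042; edgeR adjusted p = 0.00183), PHGDH (0.30 ± 0.051; edgeR adjusted p = 0.00833) and PCK2 (0.29 ± 0.050; edgeR adjusted p = 0.013) were higher at 5 µM, each without overlap of libraries. These 3 of 10 genes stood beside 0.128% of all genes, that is, 20 genes of the 15597 tested. The all-gene count in either direction, 43, was 261 with no filter, 112 by DESeq2 and 116 in 1 fit of all libraries, and 14, 12 and 17 without replicate 1 of 2.5 µM and replicates 1 and 2 of 5 µM, so that the share depends on the fit. The count was 1, ASNS, without replicate 1 of either dose or without replicate 2 of 5 µM, and PCK2 was also lost without replicate 3 of either dose. Without these libraries the edgeR adjusted p reached 0.108 for PHGDH and 0.102 for PCK2. In empty-vector cells edgeR called 0 of 10 genes (0.186% of all genes), with 2 at an unadjusted p under 0.05 and 0 by DESeq2. The difference between vectors was called for 0 of 10 by edgeR (0.0385% of all genes), with 3 at an unadjusted p under 0.05 and 0 by DESeq2. A larger step in USP18 cells was therefore not shown for CP18. For ASNS the difference of steps was 0.24 ± 0.061 on the log2 scale and did not pass. The difference from CP14, whose values chose the genes, was not tested.

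At lower CP18 doses fewer genes passed. At 2.5 µM, PSAT1, SHMT1, PCK2 and ASNS rose in USP18 cells, 4 of 10 genes beside 7.19% of all genes, and the count was 2 without vehicle replicate 1. SHMT1 was lost without vehicle replicate 1 or 2 or treated replicate 3, with edgeR adjusted p up to 0.104, and ASNS without replicate 1 of either group, with edgeR adjusted p up to 0.0823. SHMT1 was also lost by DESeq2 (adjusted p = 0.057, from 0.0276 in the other fits) and ASNS in 1 fit of all libraries (edgeR adjusted p = 0.168, from 0.0129 in the other fits). MTHFD2 alone rose in empty-vector cells (2.34% of all genes), a call that was lost, leaving 0, in 1 fit of all libraries (edgeR adjusted p = 0.227, from 0.00454 in the other fits), and without vehicle replicate 1 or 2 or treated replicate 1 or 3, and the count was 2 without vehicle replicate 3. The difference between vectors was called for 0 of 10 by edgeR (0.197% of all genes), with 3 at an unadjusted p under 0.05 and 0 by DESeq2. At 1 µM, PSAT1 and SHMT2 rose in USP18 cells (7.74% of all genes), and the count was 0 without vehicle replicate 1 or 2 or treated replicate 3. Without treated replicate 2 PSAT1 and SHMT2 were both lost as well (edgeR adjusted p = 0.0938 and 0.0786), and the count of 1 was PCK2. PSAT1 was also lost in 1 fit of all libraries (edgeR adjusted p = 0.157, where the other fits went down to 0.0033). In empty-vector cells 0 of 10 passed by edgeR (0.368% of all genes), with 0 at an unadjusted p under 0.05 and 0 by DESeq2. SHMT1, which CP14 lowered at 5 µM, was at 69.2, 65.0 and 67.4 CPM, and then at 75.4, 70.6 and 68.7 CPM with CP18 at 5 µM in empty-vector and USP18 cells.

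CP2 at 5 µM gave small rises. In USP18 cells 7 of 10 genes rose (8.65% of all genes), all but SHMT1, MTHFD1L and ALDH1L2, with PSPH lost without vehicle replicate 1 or 2 or treated replicate 2 or 3 (edgeR adjusted p up to 0.183) and by DESeq2 (adjusted p = 0.0822, from 0.0298 in the other fits), and in empty-vector cells 5 rose (5.31% of all genes), namely PHGDH, PSAT1, SHMT2, MTHFD2 and ASNS. In empty-vector cells the SHMT2 call was lost without any 1 of vehicle replicates 1 and 2 and treated replicates 1, 2 and 3 (edgeR adjusted p up to 0.209). The MTHFD2 call was lost without vehicle replicate 1 or 2 or treated replicate 2 (edgeR adjusted p up to 0.109) and in the fit of all 54 libraries (edgeR adjusted p = 0.0651, where the other fits went down to 0.00125). PSAT1 went from 247, 258 and 259 to 318, 320.1 and 325 CPM in USP18 cells (log2 fold change 0.33 ± 0.035; edgeR adjusted p = 3.1e-06). ASNS went from 97.5, 94.6 and 101 to 115, 120.5 and 126 CPM in empty-vector cells (log2 fold change 0.30 ± 0.045; edgeR adjusted p = 0.000231), and in both cases the libraries did not overlap. The count in empty-vector cells was 3 without vehicle replicate 1 or 2 or without treated replicate 2. The difference between vectors was called for 0 of 10 by edgeR (0.92% of all genes), with 2 at an unadjusted p under 0.05 and 0 by DESeq2.

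At 2 µM of CP2, 0 of 10 genes passed by edgeR in empty-vector cells (1.84% of all genes), with 4 at an unadjusted p under 0.05 and 2 by DESeq2, and 0 of 10 in USP18 cells (1.13% of all genes), with 0 at an unadjusted p under 0.05 and 0 by DESeq2. In empty-vector cells the count was 3 without vehicle replicate 3. At 5 µM in empty-vector cells the median log2 fold change of the 10 genes was 0.14 with CP2, 0.12 with CP18 and 1.20 with CP14, and in USP18 cells it was 0.20, 0.27 and 0.73. These values share vehicle libraries, and the difference between compounds was not tested.

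**Figure D4:**
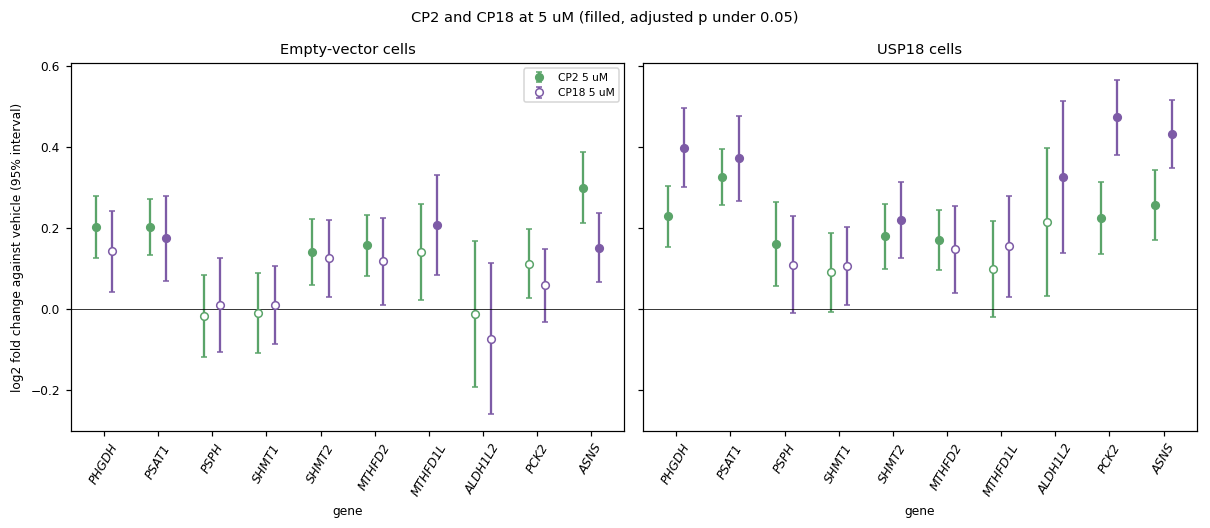
Log2 fold change from vehicle with its 95% interval (vertical axis) for each gene (horizontal axis) with CP2 (green) and CP18 (purple) at 5 µM, in empty-vector cells on the left and USP18 cells on the right. Filled points had an adjusted p under 0.05, and PCK2 with CP18 stands at 0.059 on the left and 0.47 on the right.

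Of all genes, 31% were higher and 32.1% lower in empty-vector cells with CP14 at 5 µM, and 34.4% and 34.3% in USP18 cells. Genes of neighbouring pathways likewise passed in both directions. Their counts, here and in the next paragraph, stand beside these shares, and a count near them is no result about a pathway. Of the other folate enzymes and carriers, 1 higher and 8 lower of 14 genes tested passed in empty-vector cells and 2 higher and 11 lower of 14 in USP18 cells. Purine synthesis gave 2 higher and 3 lower of 6 in empty-vector cells and 1 higher and 4 lower of 6 in USP18 cells, with PAICS at -0.58 ± 0.036 and -0.78 ± 0.036 and GART at 0.47 ± 0.039 and 0.41 ± 0.038. Genes of serine and glycine use gave 1 higher and 4 lower of 7 and 1 higher and 5 lower of 7. AMT and SARDH in that list also stand in a supplemental gene table of the study itself, so that their direction is not independent evidence.

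In the methionine cycle and transsulfuration, 2 higher and 4 lower of 6 genes passed in empty-vector cells and 1 higher and 4 lower of 6 in USP18 cells. The 2 transsulfuration enzymes, which turn homocysteine and serine into cysteine, moved apart. CBS, the first of them, rose by 1.87 ± 0.052 and 1.36 ± 0.051 on the log2 scale at 5 µM (edgeR adjusted p = 9.97e-18 and 1.14e-15), whereas CTH, the second, was at 9.65, 10.4 and 10.1 CPM in vehicle and 7.42, 5.90 and 6.51 CPM in empty-vector cells, and at 13.2, 13.2 and 13.2 CPM, and then at 7.32, 6.73 and 6.86 CPM in USP18 cells. CTH also fell with CP2 at 5 µM (-0.85 ± 0.10 and -1.02 ± 0.10; edgeR adjusted p = 3.43e-05 and 7.73e-07) and with CP18 at 5 µM (-0.82 ± 0.10 and -1.02 ± 0.10; edgeR adjusted p = 0.00011 and 9.52e-07), in empty-vector and USP18 cells respectively. Of the aspartate, glutamate and proline genes, 7 higher and 4 lower of 11 and 6 higher and 4 lower of 11 passed, with the proline enzyme PYCR1 at 0.90 ± 0.037 and 0.84 ± 0.038 and pyruvate carboxylase, PC, at -1.38 ± 0.077 and -0.97 ± 0.083.

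With CP14 at 5 µM, 7 of 8 genes of a list of ATF4 and genes linked to it rose in each vector, ATF5 being the exception. The median log2 fold change of the list was 2.37 in empty-vector cells, where 31% of all genes rose, and 2.23 in USP18 cells, where 34.4% rose. Over all genes the medians were 0.0050 and 0.011. DDIT3, a stress-induced transcription factor, was at 5.93, 7.91 and 6.91 CPM in vehicle and 38.8, 35.6 and 33.7 CPM at 5 µM in empty-vector cells, and at 7.62 ± 0.760 and 92.5 ± 4.71 CPM (SD, n = 3) in USP18 cells. Its rise was larger in USP18 cells, with every treated USP18 library above every treated empty-vector library (log2 difference 1.21 ± 0.13; edgeR adjusted p = 5.61e-07). In the difference between vectors at 5 µM, this list had 5 higher and 1 lower of 8 (13.3% and 14.4% of all genes) with a median of 0.41, beside -0.25 for the 10 synthesis genes and -0.0051 for all genes. In the other CP14 differences the medians of this list and of the synthesis genes were 0.69 and 0.41 respectively at 2.5 µM. For the step from 2.5 to 5 µM they were -0.20 and -0.81. Over all genes the medians of these 2 comparisons were 0.0082 and -0.020. The synthesis genes were selected on CP14 values and the difference between the lists was not tested, so that nothing is read from their signs.

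At 2.5 µM, this list gave 1 lower and 0 higher of 8 by edgeR (1 lower and 0 higher at an unadjusted p under 0.05, and 1 lower and 0 higher by DESeq2) in empty-vector cells, where 7.06% of all genes were higher and 2395 of 15827 were called in either direction. It gave 7 higher of 8 in USP18 cells, where 16.3% of all genes were higher. TRIB3, a pseudokinase induced through ATF4, was at 73.1, 73.0 and 76.9 CPM with the empty vector and 170.1, 125 and 105 CPM in USP18 cells, with replicate 1 again the highest. Without that library the count of this list in USP18 cells was 4 in place of 7. Amino acid transporters gave 6 higher of 8 in empty-vector cells and 6 higher and 2 lower of 8 in USP18 cells at 5 µM, beside 31% of all genes higher with the empty vector and 34.4% higher and 34.3% lower with the USP18 vector. The list was led by the glycine transporter SLC6A9 (2.17 ± 0.087 and 2.22 ± 0.10) and SLC1A4 (1.88 ± 0.061 and 2.07 ± 0.064). With CP18 at 5 µM in USP18 cells, where 6 of the 10 synthesis genes rose, the ATF4 list gave 1 lower and 0 higher of 8 by edgeR (1 lower and 1 higher at an unadjusted p under 0.05, and 1 lower and 0 higher by DESeq2), where 4.32% of all genes were higher and 1680 of 15662 were called in either direction. The count of the list was 0 without vehicle replicate 3 or treated replicate 3. In empty-vector cells, where 3 of the 10 genes rose, the list gave 1 higher (ATF3) and 1 lower (CEBPB) of 8. There 4.09% of all genes were higher. ATF3 rose by 0.68 ± 0.11 on the log2 scale (edgeR adjusted p = 0.00125), and by 1.20 ± 0.11 from 2.5 to 5 µM (edgeR adjusted p = 2.58e-06).

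Over the 18 group means of log2 CPM, 8 of the 10 genes varied together, PSPH less so, and SHMT1 went the other way. Pearson's r of each gene with the mean of the other 9 was 0.96 for ALDH1L2, 0.96 for PSAT1, 0.80 for SHMT2, 0.63 for PSPH and -0.85 for SHMT1, and that of PSPH with SHMT2 alone was 0.19. The CP14 groups, on whose values the 10 genes were chosen, are among the 18, and groups of a vector share their cells, so that r is a description. In the order of the 18 group means, CP14 at 5 µM in empty-vector cells was first for 8 of the 10 genes, number 3 for SHMT2 and last for SHMT1. Most neighbours in that order did not separate, since 13 of 17 neighbouring pairs overlapped for ASNS and 15 of 17 for SHMT1. The 5 genes other than the 10 with the pattern most like the mean of the 10, among 11317 genes with a mean of at least 5 CPM, were EPRS (r = 0.98), SNHG5 (0.97), ATG7 (0.97), PYCR1 (0.97) and EEF1A1 (0.96). EPRS, a tRNA synthetase for glutamate and proline, was at 327, 322 and 339 CPM at 2.5 µM and 458 ± 20.0 CPM (SD, n = 3) at 5 µM of CP14 in empty-vector cells, and at 403, 375 and 345 CPM, and then at 396, 344 and 346 CPM in USP18 cells.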

How the data were processed

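The authors deposited expected counts per gene from RSEM (1.3.1 in the submitters' processing notes, another version in the methods) after trimming with Cutadapt 1.18 and alignment with STAR 2.7.0f to hg38. The labels name poly(A) capture and the methods name ribosomal depletion, and the methods name a mouse annotation for counting although the identifiers are human. 94.0% of values were whole within 1e-9. Counts were rounded and tested with edgeR 4.0.16 in R 4.3.3 (quasi-likelihood, TMM, filterByExpr with a minimum count of 10 and total of 15, Benjamini-Hochberg over all genes tested), with an adjusted p under 0.05 as the threshold. Vehicle libraries of both vectors (6 libraries) or a dose and its reference in both vectors (12 libraries) entered each fit. CPM correlations and deviations used a pseudocount of 0.5. Scripts were tested on simulated data. Alternatives were RLE factors, no filter, DESeq2 1.42.0, a replicate block, 1 joint fit of the 54 libraries, and dropping each library in turn.

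The members and lists were chosen with earlier results of these data known. Named genes were the 10 members, USP18, up to 2 largest rises and 2 largest falls past the threshold, without overlap of libraries, per other pathway list and comparison, and the 5 genes most like the members. DDIT3, TRIB3, PC, SLC1A4 and the other list genes in the text fall under that rule in at least 1 comparison.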

Additional observations from a re-analysis of the deposited data

Results flagged for a closer look

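The response of PCK2 to CP18 at 5 µM differed between vectors in a test of the difference itself, by 0.41 on the log2 scale (edgeR adjusted p = 0.00595), and the adjusted p ran from 6.15e-05 to 0.0206 over the other fits, DESeq2 included. Among the 10 genes PCK2 also had the largest vehicle difference between vectors, and its USP18 level with CP18 (59.3 ± 1.34 CPM, SD, n = 3) came close to its empty-vector level (61.8 ± 1.37 CPM).

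For 3 genes, every empty-vector library with CP14 at 5 µM lay above the 2.5 µM mean while every USP18 library lay below it. Mean log2 CPM differences were 0.82 and -0.25 for PHGDH, 0.66 and -0.18 for PSAT1, and 0.49 and -0.075 for PSPH, in empty-vector and USP18 cells. Without replicate 1 of the 2.5 µM USP18 libraries, the fitted USP18 step was -0.049 for PSAT1 and 0.016 for PSPH, so that the opposite directions of PSPH depended on this library. Over the fitted steps, 4 of the 10 genes had a positive step with the empty vector and a negative one with the USP18 vector, as did 1726 of 15891 genes (10.9%). The opposite movement of the libraries was not tested. Fits of the same steps are described in the report without a p-value, since CP14 values chose the genes.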

How the results depend on the processing

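The median log2 fold change of the 10 genes moved by less than the spread between replicates under RLE factors, no filter, DESeq2, the replicate block and 1 fit of all libraries, in all 28 comparisons. Leaving out 1 library moved 18 medians by more and 192 by less. The lowest and highest medians were then -0.086 to -0.014 for the vectors in vehicle, 0.10 to 0.16 and 0.16 to 0.22 for CP2 at 5 µM in empty-vector and USP18 cells, 0.11 to 0.16 and 0.64 to 0.84 for CP14 at 1 and 2.5 µM in USP18 cells, 0.69 to 0.81 at 5 µM, -0.31 to -0.20 for the difference between vectors at 5 µM and -0.89 to -0.68 for the difference of steps. For CP18 they were 0.059 to 0.094 and 0.10 to 0.15 in USP18 cells at 1 and 2.5 µM, 0.019 to 0.083 in empty-vector cells at 2.5 µM, 0.050 to 0.11 and 0.13 to 0.19 for the difference between vectors at 2.5 and 5 µM, 0.028 to 0.060 for the step from 2.5 to 5 µM in empty-vector cells and 0.076 to 0.16 for its difference between vectors. The cause was not tested.

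Counts of the 10 genes called changed by over 1.5 times in few settings. The CP14 comparisons are not included, since their counts of the 10 genes were not compared across settings. With CP2 at 2 µM in empty-vector cells they were 2 with no filter and 2 by DESeq2, against 0. With CP18 they were 1 in 1 fit of all libraries at 1 µM in USP18 cells, against 2, and 2 with no filter and 0 in 1 fit at 2.5 µM in empty-vector cells, against 1. At 5 µM in empty-vector cells they were 1 with RLE factors and 1 with the replicate block, against 3, and in the difference between vectors 2 with RLE factors, 2 with no filter and 2 by DESeq2, against 1. Leaving out 1 library gave 0 to 3, 3 to 5, 0 to 3, 0 to 2, 2 to 6, 0 to 3, 1 to 3 and 1 to 3 genes in CP2 at 2 and 5 µM in empty-vector cells, CP18 at 1 µM in USP18 cells, at 2.5 µM in empty-vector and USP18 cells, at 5 µM in empty-vector cells, in the difference between vectors and in the USP18 step. Over all genes kept, same-numbered replicates did not deviate together in the 21 pairs of groups compared (r from -0.157 to 0.0647). Counting noise of low genes enters this r. The labels do not say whether same-numbered replicates shared a culture or a batch, and this was not tested.

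Over all genes, counts of calls changed by over 1.5 times in several comparisons. With CP18 at 1 µM in empty-vector cells, 58 became 414 with no filter, 97 with the replicate block, 114 by DESeq2 and 0 in 1 fit, and with CP18 at 5 µM in USP18 cells 1680 became 2569 in 1 fit. Leaving out 1 library changed 80 such counts by over 1.5 times and 130 by less. With CP18 at 5 µM in USP18 cells the count was 883 without treated replicate 1, the lowest of 5 such changes. In empty-vector cells 1315 became 441 without vehicle replicate 2 and 2213 without treated replicate 3. With CP14 at 2.5 µM in empty-vector cells 2395 became 1315 without vehicle replicate 1. The shares of all genes beside the member counts vary accordingly. Of the 33416 genes with a count in any library, 15252 passed the count filter in vehicle, and what greater depth would add was not tested. Genes of the other pathway lists were recomputed as counts per list and not singly.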

Other observations

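GLUL, glutamine synthetase, and the amino acid carriers SLC7A5, SLC3A2 and SLC38A2 differed between vectors in vehicle. GLUL was higher in USP18 cells (log2 fold change 4.29 ± 0.10; edgeR adjusted p = 1.2e-16), at 3.58, 3.53 and 2.42 CPM in empty-vector and 64.8, 59.6 and 59.2 CPM in USP18 libraries. SLC38A2, a carrier of small neutral amino acids, was also higher in USP18 cells (1.72 ± 0.030; edgeR adjusted p = 3.73e-18). SLC7A5 was lower, at -2.04 ± 0.035 (edgeR adjusted p = 2.86e-18), and so was its partner SLC3A2, at -1.51 ± 0.028 (edgeR adjusted p = 6.27e-18). Passing the threshold without overlap of libraries was a condition for naming these 4 genes. In vehicle, 29.5% of all genes had every USP18 library above every empty-vector library, and 29.7% had them all below.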
